A study of Rattus norvegicus with 20 samples.

Results

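The kidney pool was compared with the other tissues of the same rats. It is 1 of the 20 small RNA libraries of the series and was taken by its label. The comparison used 16 other tissue libraries, which are 13 pools and 3 brain hemispheres, and the mean of the hemispheres stood for brain, so that kidney was set against 14 other tissues. The 3 serum libraries were left out. All animals were untreated, non-drinking male Long Evans rats at postnatal day 35, with no genetic change. The study profiled these tissues to ask where the miRNAs found in serum might come from. The kidney library holds the miRNA of 3 rats mixed before sequencing. It is thus 1 sample with no replicate, and its values carry counting error only. The tissue was homogenized whole, and in such RNA fewer cells of a type and less RNA per cell cannot be told apart.

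miRNAs are short RNAs cut from a hairpin precursor, and bases 2 to 8 of the mature strand, the seed, do most of the pairing with target mRNAs. The kidney is built mainly of tubule epithelium around vessels and glomeruli. The miRNAs mir-192 and mir-194 are known from gut, liver and kidney epithelium and are linked to the transcription factor Hnf1. The mir-30 family is needed for nephron development and podocyte maintenance, the mir-200 family keeps epithelial identity by repressing Zeb1 and Zeb2, and the mir-10 and mir-196 families lie in the Hox clusters, whose genes are expressed along the body axis.

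The mature sequences below are those on which the kidney profile turns, shown 5′ to 3′ as RefSeq gives them (GRCr8 table) with the seed in capitals. Of the 577 mature names in the data, 534 matched 1 RefSeq sequence. The first sequences are the most abundant miRNAs of kidney and their relatives, and the last are those of smaller miRNAs that stood above other tissues.
miR-10a-5p: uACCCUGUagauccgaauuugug
miR-10b-5p: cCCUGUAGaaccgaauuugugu
miR-192-5p: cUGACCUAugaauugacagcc
miR-194-5p: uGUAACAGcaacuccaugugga
miR-30a-5p: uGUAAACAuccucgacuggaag
miR-30e-5p: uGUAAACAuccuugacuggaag
miR-30c-5p: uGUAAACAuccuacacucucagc
miR-196a-5p: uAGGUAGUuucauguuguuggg
miR-196b-5p: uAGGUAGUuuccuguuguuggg
miR-653-5p: uUGAAACAuucucuacugaac
miR-653-3p: uUCACUGGgguuuguuucacua
miR-489-3p: aUGACAUCacauauauggcagc
miR-218a-5p: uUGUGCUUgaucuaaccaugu
miR-3068-3p: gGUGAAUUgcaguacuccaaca
miR-499-5p: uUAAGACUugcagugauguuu

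The 3 members of the mir-30 family shown here share 1 seed, and so do both mir-196 miRNAs. Positions are counted from 1 at the 5′ end of the first miRNA named. miR-30a-5p and miR-30e-5p differ by C13U, and miR-196a-5p and miR-196b-5p by A12C. The RefSeq sequence of miR-10b-5p starts 2 bases later than that of miR-10a-5p, after the hairpin bases UA, and from there the pair differs by U12A alone. With this start, the seeds of the RefSeq entries are not the same for miR-10a-5p and miR-10b-5p. miR-200a-3p and miR-429 are named only.

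Levels are given as RPM, the reads per 1000000 of all reads that a library had on miRBase precursors. A difference is log2(RPM + 1) in kidney minus the median of log2(RPM + 1) over the other 14 tissues. Medians printed in RPM were taken on RPM itself. With an even number of tissues these medians are not the same, so printed levels need not give the printed difference. The kidney library held 611610 precursor reads, against 162080 to 3685760 in the 16 other libraries, so that 3 reads, taken as the limit of detection, were 4.91 RPM in kidney and 0.814 to 18.5 RPM elsewhere. Wilson 95% intervals are given for levels and exact conditional 95% intervals for ratios of read counts, and both cover counting error only. For scale, 172 precursors at 100 RPM or more had a median SD of 0.18 on the log2 scale among the 3 brain hemispheres, with a largest SD of 0.95. The library labelled pancreas held mir-122, the hepatocyte miRNA, at 14862 RPM, beside 14726 RPM in liver, whereas the acinar miRNAs mir-216a and mir-217 were listed at 0. It is therefore called the library labelled pancreas, and the counts of precursors raised, lowered and highest in kidney are given without it as well.

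Kidney expressed the miRNAs its label calls for. The markers mir-10a, mir-30a and mir-192 were its 2nd, 4th and 3rd most abundant precursors, and mir-10a and mir-30a stood higher in kidney than in any other tissue. Several miRNAs that define other tissues were at or near 0, where 0 reads means an estimated count under 0.5. The hepatocyte miRNA mir-122 had 0 reads, as did the 3 copies of the neuronal mir-124 and the striated muscle miRNAs mir-1, mir-206, mir-208a, mir-208b and mir-133b, and mir-133a had 1 read. The red cell miRNA mir-451 stood at 21.3 RPM, beside 6026 RPM in spleen and a median of 12.9 RPM. For mir-124, mir-1, mir-206 and mir-208a the median of the other tissues was itself 0. Other miRNAs of the same kinds were not low in kidney. The striated muscle miRNA mir-499 stood at 118 RPM (difference 2.46), and the 3 copies of the neuronal mir-9a had differences of 2.23 to 2.55, as given below.

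Of the 444 precursors, 262 had at least 1 read in kidney, and 294 were compared because they had at least 10 reads in at least 3 of the 17 libraries. With 1 kidney library there is no test, and precursors were named by size. By the difference defined above, with 4-fold as a difference of 2, 20 precursors, or 6.8%, stood at least 4-fold higher in kidney. By the same rule 35, or 11.9%, stood at least 4-fold lower. Another count took the precursors of kidney that exceeded every other tissue library, which were 4, or 1.36%. With each of the other tissues in the place of kidney, raised ran from 14 in stomach to 142 in brain. Lowered ran from 2 in skin to 59 in the library labelled pancreas, and highest from 2 in stomach to 126 in brain. For highest, brain was here the mean of its libraries, and by this rule kidney again had 4. Kidney was thus among the tissues with few raised precursors. The filter counts brain as 3 libraries, and 23 of the 294 precursors passed it through brain alone, so the counts for brain are in part set by the filter. Without the library labelled pancreas, 19 precursors were raised, 38 lowered and 6 highest, and 18 of the 20 raised precursors and all 4 of the highest were shared with the full comparison.

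**Figure D1:**
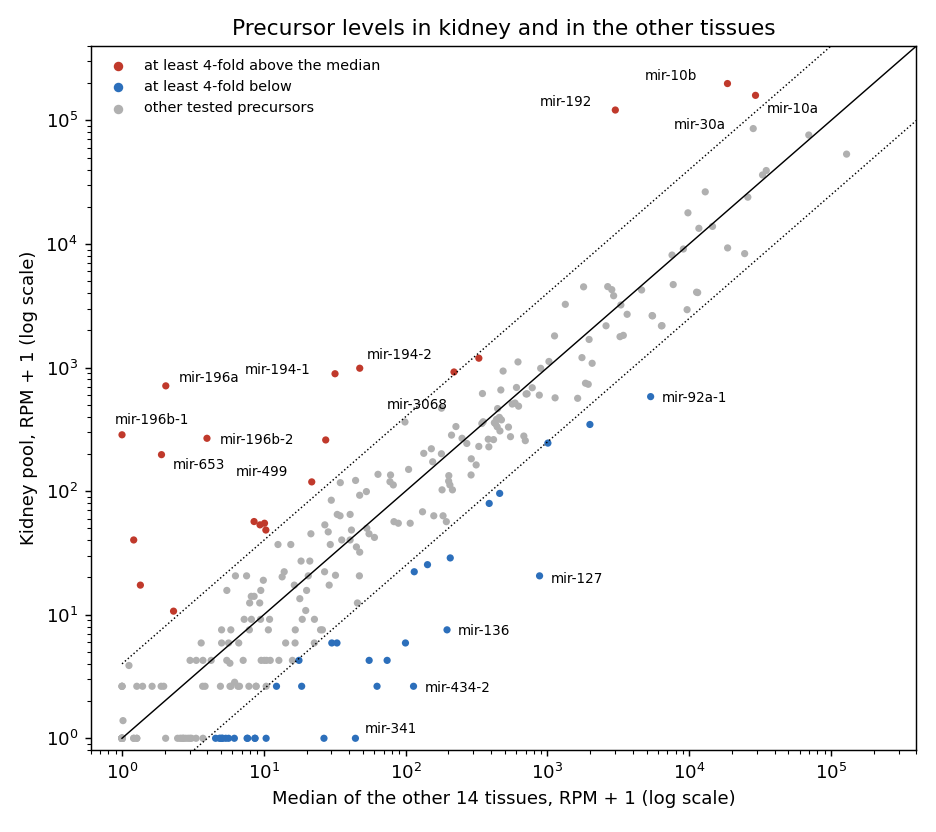
Level of the 294 precursors compared, in the kidney pool (y axis, RPM + 1, log scale) against the median of the other 14 tissues (x axis, RPM + 1, log scale). Each point is 1 precursor, the solid line marks equal levels and the dotted lines a 4-fold difference. Most points lie between the dotted lines. Colour follows the log2 difference, with 20 precursors in red and 35 in blue, and all blue points lie below the lines. The red points lie above them except mir-429, which is just under the upper line because the x axis shows the median of RPM.

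Few miRNAs held most of the kidney reads, as in some other tissues. The 4 precursors mir-10b, mir-10a, mir-192 and mir-30a took 56.5% of its reads, and 18 precursors made up 90% of them. The 4 most abundant precursors of each other tissue took 30.6% of its reads in brain to 72.8% in stomach, and small and large intestine also stood above kidney. In the other tissues the same 4 precursors held 3.43% of reads in thymus to 40.3% in small intestine, where mir-192 alone held 32.4%. They were chosen by their level in kidney, so a larger share there is in part set by the choice. Over all 294 precursors the median difference was -0.20, and over the 99 with at least 100 reads in kidney it was -0.11, with 46 of them above 0. Across those 294 precursors the log2 levels of kidney correlated most with large intestine (Pearson's r = 0.913) and least with brain (r = 0.589). The low value for brain is in part set by the filter, which 23 of the 294 precursors passed through brain alone. These are descriptions across precursors of libraries that differ in depth, and precursors are not replicates.

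The mir-10 pair led the kidney profile. mir-10a, which lies between Hoxb5 and Hoxb4, reached 159309 RPM (95% interval 158394 to 160228), and over the other tissues it ran from 3492 RPM in testes through a median of 29302 RPM to 92112 RPM in lung. Kidney stood above every other library, with a level 1.73 times that of lung (95% interval 1.72 to 1.74) and a difference from the median of 2.45. mir-10b, which lies at Hoxd4, reached 198457 RPM and ran elsewhere from 1110 RPM in the library labelled pancreas through a median of 18586 RPM to 232046 RPM in testes. Kidney and fat, at 193172 RPM, came after testes, and the difference of kidney from the median was 3.44. The ratio of mir-10b to mir-10a reads was 1.25 in kidney (1.24 to 1.26) and 1.19 in large intestine, whereas it was 0.0148 in lung and 66.4 in testes. Lung thus held mir-10a with little mir-10b and testes the reverse, while kidney, fat, large intestine, spleen and stomach held both above their medians. The mature sequences differ by 1 base where they overlap, and how the aligner shared such reads was not tested.

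**Figure D2:**
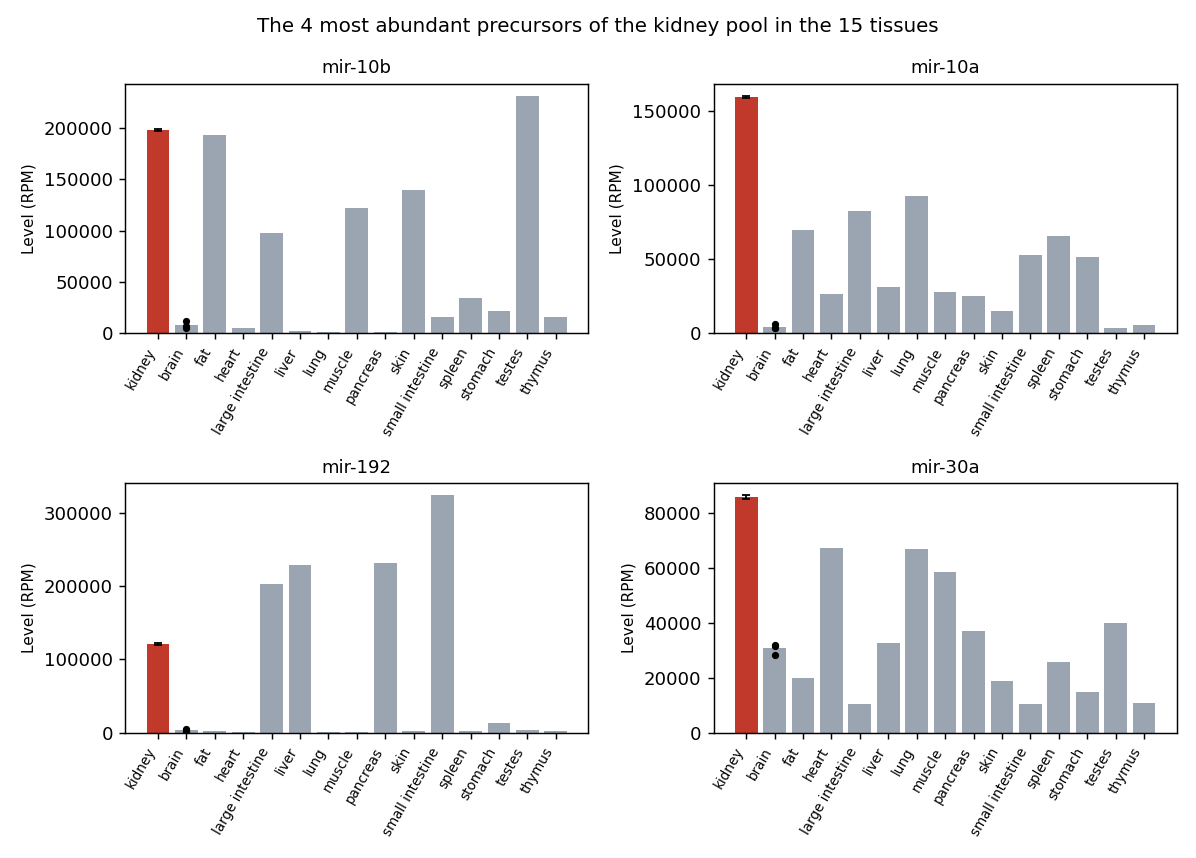
Level of mir-10b, mir-10a, mir-192 and mir-30a (y axes, RPM) in the 15 tissues, with kidney in red. Bars start at 0, the error bar on kidney is the 95% Wilson interval, and black points on brain are its 3 libraries. Kidney has the tallest bar for mir-10a and mir-30a, is second to testes for mir-10b and ranks 5 of 15 for mir-192.

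The same order was not kept under every scaling. TMM scaling, which corrects totals for the part taken by abundant features, put the scaled RPM of mir-10a in kidney at 210178, below large intestine at 216939, and mir-10b in kidney at 261826, above large intestine at 258358. With DESeq2 size factors both were highest in kidney. TMM and DESeq2 scaling moved the median difference of all 294 precursors up by 0.18 and 0.20, and the differences of mir-10a and mir-10b then lay between 2.55 and 2.58 and between 3.23 and 3.37.

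The other Hox miRNAs were far less abundant but differed more from the median. mir-196a, between Hoxc10 and Hoxc9, had 434 reads or 709.6 RPM in kidney (645.9 to 779.5). Muscle at 1134 RPM and fat at 987 RPM were higher, skin held 313 RPM, and the remaining tissues held 0 to 43.2 RPM. mir-196b-1, between Hoxa9 and Hoxa10, stood at 284 RPM, below large intestine at 476 RPM and muscle at 325 RPM, and mir-196b-2 stood at 267 RPM with the same tissues above it. The 5 tissues with the most of both mir-196b copies were kidney, fat, muscle, skin and large intestine, and large intestine held them but 3.80 RPM of mir-196a. Because the median tissue held 1.04 RPM of mir-196a and 0 of mir-196b-1, their differences of 8.49 and 8.16 depend on the 1 RPM added, and they became 6.03 and 4.88 with 10 RPM added. Both mir-196b copies give the same mature miRNA and their reads cannot be told apart by it. mir-615, at Hoxc6 and Hoxc5, had 10 reads (16.4 RPM), and mir-196c, which was not compared, had 7. All 5 members compared of the list of mir-10 and mir-196 precursors were thus raised, beside 6.8% of all precursors, and mir-615, which the list did not hold, was raised as well. By library totals the sum of the list, with mir-196c and without mir-615, was 359038 RPM. This was the highest of the 15 tissues, where fat at 263951 RPM came next. The rank of the sum under TMM was not computed. There mir-10a was higher in large intestine (216939 against 210178 in kidney) and mir-10b lower (258358 against 261826).

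The pair of mir-192 and mir-194, whose seeds differ, was high in kidney and in 4 other libraries. mir-192 reached 121188 RPM in kidney. It was higher in small intestine (324177 RPM), the library labelled pancreas (232017 RPM), liver (228719 RPM) and large intestine (202869 RPM), and the other 10 tissues held 1116 RPM in muscle to 12905 RPM in stomach. Kidney lay between these groups, and its difference from the median was 5.33. mir-194-1, in Iars2, stood at 889 RPM, and mir-194-2, next to mir-192 between Atg2a and Ehd1, stood at 986 RPM, with differences of 4.84 and 4.44. Both ranked 5 of 15 behind the same tissues as mir-192. All 3 precursors of this pair were raised, beside 6.8% of all precursors, but 2 of them are copies of mir-194. The copies of mir-194 share their mature sequence, so their split is uncertain and their sum is the safer value. The reads of mir-192 were 64.6 times those of both mir-194 copies in kidney (61.0 to 68.6). That ratio was 12.4 in small intestine (12.2 to 12.6), 35.1 in large intestine, 51.1 in liver and 54.7 in the library labelled pancreas. Kidney thus had the least mir-194 per mir-192 of the 5 tissues rich in both. mir-802, a miRNA of liver and gut epithelium, was raised as well, with 24 reads in kidney (39.2 RPM) beside 1018 RPM in liver and 241 RPM in small intestine. Kidney ranked 4 of 15 for it, and the library labelled pancreas, with 206 reads, also stood above kidney.

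**Figure D3:**
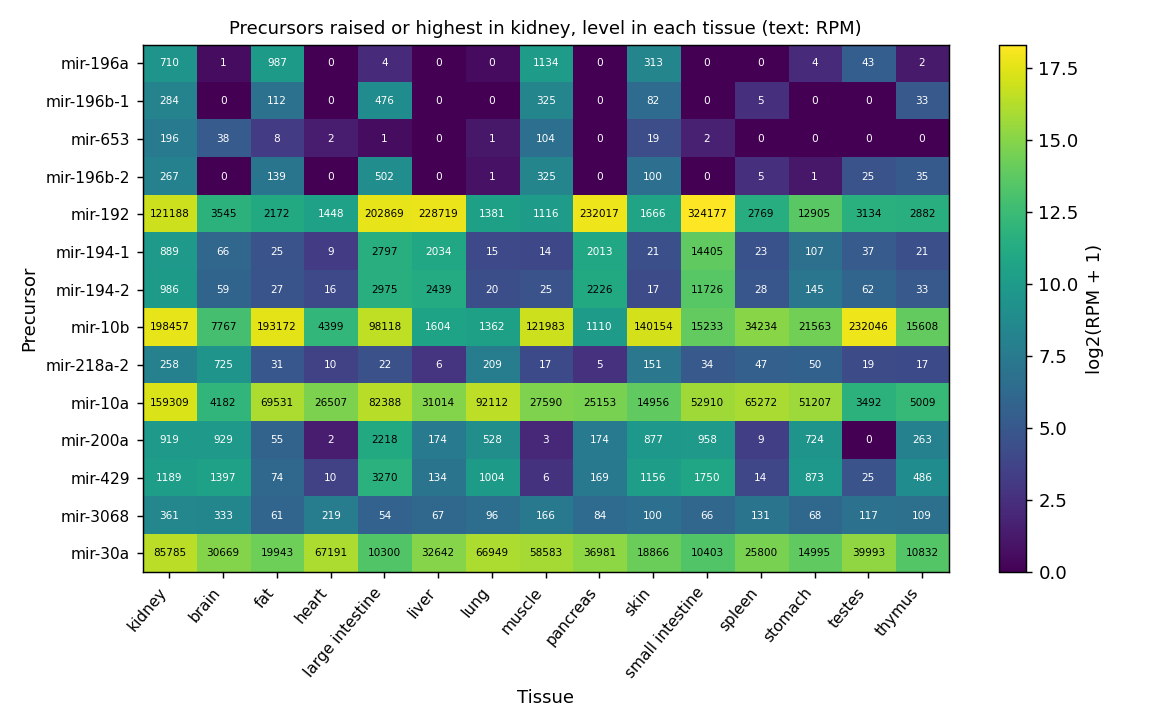
Level in each of the 15 tissues (x axis) of the 12 precursors raised in kidney with at least 100 reads, followed by mir-3068 and mir-30a, which were highest in kidney without reaching a 4-fold difference (y axis). The colour is log2(RPM + 1) and the text in each cell is RPM. Kidney shares mir-192 and mir-194 with gut, liver and the library labelled pancreas, and mir-196 with fat, muscle, skin and large intestine.

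In the mir-30 family, mir-30a stood out. It reached 85785 RPM in kidney (85086 to 86490) and ran from 10300.2 RPM in large intestine through a median of 28235 RPM to 67191 RPM in heart and 66949 RPM in lung. The kidney level was 1.28 times that of heart (1.26 to 1.29), and its difference of 1.61 did not reach 4-fold. It was highest in kidney under the totals, TMM and DESeq2 alike, with differences of 2.00 and 2.16 under the latter pair. mir-30e stood at 26389 RPM and ranked 3 of 15, after heart and thymus, with a difference of 1.05. mir-30c-2 (4495 RPM, difference 1.32) also ranked 3, mir-30c-1 stood at 219 RPM (0.55), and mir-30d, at 4689 RPM, had a difference of -0.69, which became 0.01 with DESeq2 size factors. None of the 5 compared reached 4-fold in either direction, and 4 of 5 lay above the median. mir-30e and mir-30c-1 lie together in Nfyc and their differences were 1.05 and 0.55. In sum the family held 121578 RPM in kidney, second to heart at 129581 RPM, with a median of 55771 RPM over the other tissues. Reads of mir-30a were 3.25 times those of mir-30e in kidney (3.19 to 3.31), and the ratio ran from 0.401 in thymus to 12.4 in lung.

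By the log2 difference, mir-200a and mir-429 of the mir-200 family lay just past the 4-fold line and the other members under it. mir-200a (919 RPM, difference 2.10), mir-200b (935 RPM, 0.95) and mir-429 (1189 RPM, 2.05) lie in Ttll10 within 10 kb of each other. mir-200a and mir-429 each ranked 4, after large intestine, small intestine and brain. For mir-200a, small intestine at 958 RPM, brain at 929 RPM and skin at 877 RPM lay within the kidney interval of 846 to 998 RPM. Their order was thus not detectable at this depth. Across the other tissues mir-429 ran from 5.56 RPM in muscle through a median of 327 RPM to 3270 RPM in large intestine. Set against that median in RPM, its kidney level was under 4-fold. mir-141 (688 RPM, 0.57) and mir-200c (3 reads, -1.27) form the other cluster. Altogether 2 of 5 members compared were raised, beside 6.8% of all precursors, and the family's sum of 3736 RPM ranked 8 of 15. Calls for mir-200a and mir-429 were near the line, and each fell under it in 8 of 23 other settings. Leaving out any 1 of the fat, heart, liver, muscle, spleen or testes pools or the library labelled pancreas took mir-200a to 1.80 and mir-429 to 1.29.

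**Figure D4:**
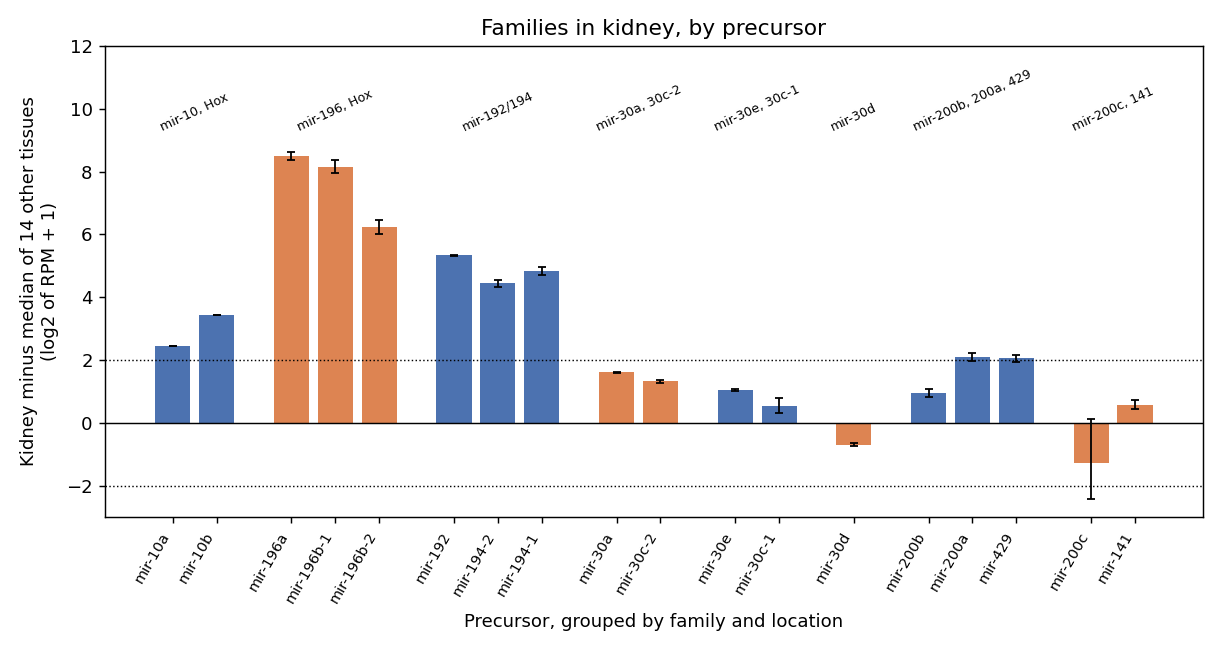
Difference between kidney and the median of the other 14 tissues (y axis, log2 of RPM + 1) for single precursors (x axis) grouped by family and location. Error bars are the 95% Wilson interval of the kidney level, colours only separate neighbouring groups and dotted lines mark 4-fold. The bars of mir-196, mir-192 and mir-194 are all above the upper line, the mir-30 bars all lie below it and mir-30d is negative.

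mir-653 was the least abundant of the precursors that were highest in kidney with a difference over 4-fold. It lies with mir-489 in Calcr, the gene of the calcitonin receptor. It had 120 reads in kidney, or 196 RPM (164 to 235), beside 104 RPM in muscle, 38.1 RPM in brain, 18.6 RPM in skin and 0 to 8.17 RPM in the other 11 tissues. Kidney exceeded muscle 1.89 times (1.46 to 2.44), and the difference from the median was 6.72. The reads of mir-653 were 13.3 times those of mir-489 in kidney (6.79 to 29.9) and 7.71 times in muscle. Of the mature reads of mir-653 in kidney, 73.1% came from the 5p arm, over 26 reads.

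mir-3068, in Alkbh1, was also highest in kidney by its level, at 361 RPM (317 to 412) beside 53.7 to 333 RPM in the other tissues. Its nearest library was 1 of the brain hemispheres at 339.5 RPM, and the ratio of 1.06 had a 95% interval of 0.899 to 1.26. The order of kidney and that hemisphere was not detectable at this depth. The difference from the median was 1.87.

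Several raised miRNAs are better known from other organs. mir-218a-2, in the axon guidance gene Slit3, stood at 258 RPM, second to brain at 725 RPM and above lung at 209 RPM, with a difference of 3.27. mir-218a-1 and mir-218b, in Slit2, were raised on 34 and 6 reads. mir-499, which lies in the myosin gene Myh7b, had 72 reads (118 RPM, 93.5 to 148) and was second to heart at 1236 RPM, with thymus at 80.5 RPM next. Of the other 7 striated muscle miRNAs listed, 6 had 0 reads and mir-133a had 1 read, and of the 4 of this list compared 1 was raised and 2 were lowered, beside 6.8% and 11.9% of all precursors. The mature list gave miR-499-5p 55 reads in kidney. The 3 mir-9a copies, neuronal miRNAs whose mature sequence is shared, were raised on 29 to 33 reads each. mir-9a-1 stood at 52.3 RPM in kidney and 11990 RPM in brain. Of the 6 neuronal miRNAs compared these were the 3 raised, beside 6.8% of all precursors, and the 3 mir-124 copies had 0 reads. Whether reads of other cells or libraries had a part in these low values was not tested.

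Among the 12 raised precursors with at least 100 reads, the smallest difference was that of mir-429. The other 8 raised precursors had under 100 reads. Just outside the line lay mir-190a-2 at 1.88, on 12 reads. mir-107 ranked 2 (468 RPM, 1.39), and the copies mir-29c-1 and mir-29c-2 ranked 2 as well (1.47 and 1.76).

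Lowered precursors were mostly of low count. Of the 35, 30 had under 20 reads in kidney and 15 had 0. For 7 of those 15 the median of the other tissues was also under the 4.91 RPM limit of the kidney library, so that for these no difference was detectable at this depth. Of the 35, 26 had a lower level in kidney than in any other tissue or tied at 0, counting error aside. With the kidney level at the upper bound of its Wilson interval, 10 remained.

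The deepest were imprinted miRNAs of the Dlk1 and Dio3 region, a cluster expressed from the maternal chromosome and known from brain and muscle. mir-127 had 12 reads in kidney (19.6 RPM, 11.2 to 34.3), and it ran elsewhere from 114 RPM in thymus through a median of 878 RPM to 49957 RPM in brain. Kidney was below every other tissue and the difference was -5.36. mir-136 stood at 6.54 RPM on 4 reads (2.54 to 16.8), against a median of 195 RPM (-4.70). Its level was the lowest of the 15 tissues, though lung at 8.36 RPM lay within that interval. mir-434-2 had 1 read, with a median of 113 RPM elsewhere (-5.43). By the GRCr8 gene table, 59 of 423 matched precursors lie between Dlk1 and Dio3, a set taken after these values were seen. Of its 43 compared, 11 were lowered, beside 11.9% of all precursors, and 0 were raised. Among those lowered, mir-1247, mir-376a, mir-493 and mir-540 had 0 reads and a median under the 4.91 RPM limit of kidney. In kidney 19 of the 43 had 0 reads, beside 52 of all 294 precursors compared. The filter counts brain as 3 libraries and the region is high in brain, so members could be compared with few reads elsewhere. The share with 0 reads is thus in part set by the filter. The median difference of the 43 was -0.43, beside -0.20 for all. Not all members were low, since mir-541 stood at 283 RPM in kidney and 210 RPM at the median. Their summed level of 745.6 RPM ranked 12 of 15, with 2126 RPM at the median, 232 RPM in lung and 85752 RPM in brain, so the summed level of the region was not the lowest in kidney.

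Lowered precursors with more reads were of other kinds. mir-92a-1, of the proliferation-linked mir-17-92 cluster, stood at 580 RPM on 355 reads, below every other tissue. The others ran from 905 RPM in brain through a median of 5337 RPM to 14940.4 RPM in thymus, and the difference was -3.20. Of the same cluster mir-18a was lowered on 0 reads. Its members mir-17-1 (-0.01), mir-19a (-0.25) and mir-19b-1 (-0.73) were not lowered, so the cluster was not low as a whole. mir-146b, of the immune-regulating mir-146 family, stood at 345 RPM against a median of 1991 RPM (-2.53), with liver lower at 223 RPM. Its relative mir-146a was more abundant and was not lowered (2175 RPM, -0.24). let-7b, at 244 RPM (149 reads), stood against 1006 RPM (-2.01), at the line itself. mir-125b-1 (94.8 RPM, -2.26) and mir-338, an oligodendrocyte miRNA (21.3 RPM on 13 reads, -2.37), had their lowest level in kidney, counting error aside. For mir-125b-1, thymus at 104.8 RPM lay within the kidney interval of 73.4 to 122.6 RPM. mir-676 (78.5 RPM, -2.28, and -1.81 with TMM) ranked 12 and mir-31a (24.4 RPM, -2.48) ranked 11.

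Other cell types had some members called beyond the muscle and neuronal ones. mir-150 of lymphocytes was lowered in kidney (27.8 RPM against 205 RPM, -2.84). Its level was the lowest of the 15 tissues, though large intestine at 35.8 RPM lay within its interval of 17.4 to 44.5 RPM. mir-150 was the 1 of 5 leukocyte miRNAs called, beside 11.9% of all precursors lowered. All 5 lay below the median, with a median difference of -0.73 beside -0.20 for all precursors. mir-126a of endothelium stood at 17853 RPM, above the median of 9781 RPM, and ranked 5. mir-143 of smooth muscle stood at 53299 RPM, below the median of 128539 RPM (-1.27), and ranked 13, with stomach at 611902 RPM on top. mir-205 of stratified epithelium was lowered on 2 reads. Neither erythroid, mesenchymal, pancreatic nor germ cell miRNAs passed the line. Nor did mir-204 (111 RPM, -0.77), mir-211, the mir-29 family or the Clcn5 cluster. The miRNAs of hypoxia and injury, mir-21 (13373 RPM, 0.20) and mir-210 (41.2 RPM, -0.51), did not pass it either. In the Clcn5 cluster mir-532 had 62 reads, and its 101 RPM was the lowest level of the 15 tissues, counting error aside.

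Several other abundant precursors were near their level elsewhere. let-7f-1 (76081 RPM, 0.13), mir-22 (39259 RPM, 0.17), mir-27b (36165 RPM, 0.14), mir-26a (23894 RPM, -0.11), let-7f-2 (13862 RPM, -0.07) and mir-16 (9096 RPM, 0.03) lay within 0.20 of the median. mir-148a was lower, at 9282 RPM against a median of 18629 RPM, and 103893 RPM in the library labelled pancreas and 92294 RPM in liver were its highest levels.

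The mature list counts the same reads by strand and held 61.9% of the precursor reads of kidney, and 60.3 to 87.8% in the other libraries. The agreement between the lists was not even. For mir-10a the mature reads were 87.6% of the precursor reads in kidney, with 84.8 to 90.8% over the 17 libraries, and for mir-192 they were 82.8%. For mir-10b they were 0.481%, from 581 reads of miR-10b-5p and 3 of the other arm beside 121378 precursor reads, and 0.409 to 2.68% over the libraries. mir-30a had 40.9%, mir-30e 8.12% and mir-148a 4.72%. mir-10b was thus the most abundant precursor of kidney and a minor entry in the mature list, in kidney as in the other libraries. Why the lists differ was not tested. Of the mature reads that were counted, the 5p arm had 99.9% for mir-10a, 97.7% for mir-30a and 49.2% for mir-30e. In the mature list 19 of 290 entries were raised, 35 lowered and 6 highest in kidney, among them miR-10a-5p, miR-30a-5p and miR-30e-5p.

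**Figure D5:**
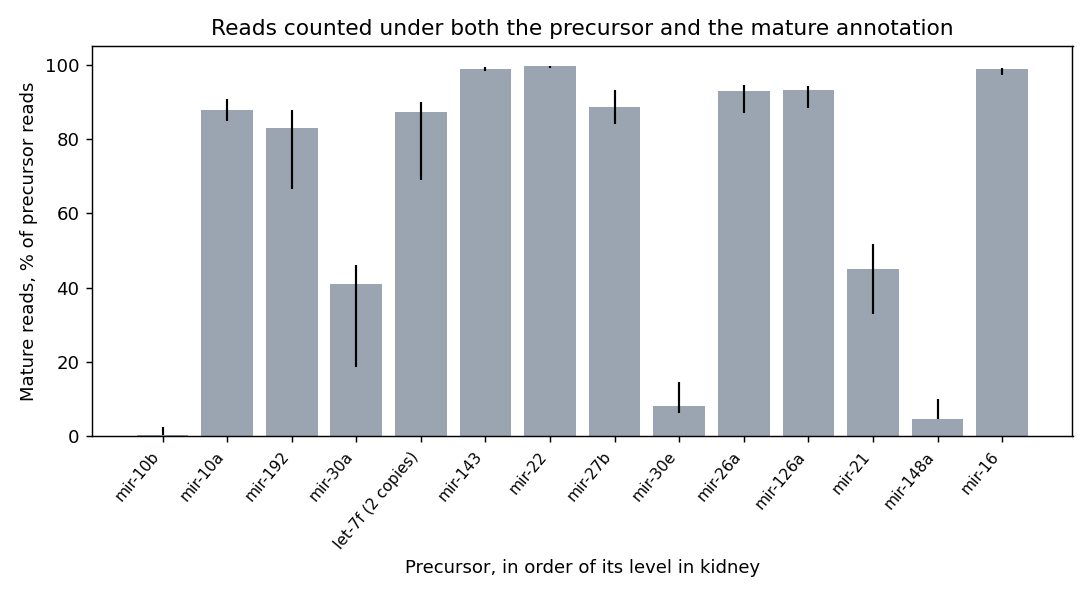
Mature reads as a percentage of precursor reads (y axis) for the most abundant precursors of kidney in order of level (x axis), with the 2 let-7f copies summed. Bars are the kidney pool and vertical lines the range over the 17 tissue libraries. The bar for mir-10b is close to 0 in kidney and every other library, while mir-10a, mir-192 and mir-22 are over 80% in kidney.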

How the data were processed

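Libraries came from the TruSeq Small RNA kit and were run on a MiSeq. Per the authors' notes, bases under a quality of 20 were trimmed, and reads were placed on Rn5 by Bowtie and counted with Partek software against miRBase 21 and RefSeq. The authors deposited estimated counts, unnormalized and partly fractional, under 444 precursors, 577 mature miRNAs and 388 RefSeq miRNAs, which count the same reads. In large intestine the mir-143 count was deposited rounded. Here RPM was taken within the precursor list and 1 RPM added before log2. Precursors with at least 10 reads in at least 3 of 17 libraries were compared. No test was made for 1 pool.

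Named precursors are the 15 most abundant in kidney, the 15 largest differences with at least 100 reads, the 10 lowest with a median of at least 100 RPM, those highest in kidney, members of the lists, and others named for their values. The members and lists were chosen with earlier results of these data known. Estimated counts were rounded for the TMM factors of edgeR 4.0.16 and the DESeq2 1.42.0 size factors (R 4.3.3). Levels and intervals were computed in Python 3.11.15 (SciPy 1.17.1, NumPy 2.4.6, pandas 2.3.3), with plots by Matplotlib 3.10.9, and the procedure was tested on simulated data. Neighbouring genes came from the RefSeq table of GRCr8, and no coordinates are given.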

Additional observations from a re-analysis of the deposited data

Results flagged for a closer look

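The serum libraries were outside the comparison of tissues, and the 4 leading precursors of kidney were each above the 114 RPM that 3 reads over the pooled serum libraries allow. In serum mir-10a stood at 115631 ± 41749 RPM, mir-10b at 104385 ± 37925 RPM, mir-192 at 19377 ± 6409 RPM and mir-30a at 24628 ± 8323 RPM (SD, n = 3). These rested on 3173, 2639, 508 and 630 reads. No test was made of them, and other tissues hold the same miRNAs. mir-196b-1, raised in kidney, had 0 reads in the serum libraries.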

How the results depend on the processing

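No paired analysis was possible because kidney is 1 pool with no replicate number and its values come from no test. The 20 raised precursors became 41 at a 2-fold and 11 at an 8-fold line. The 35 lowered became 90 and 13 at those lines, 14 with 10 RPM added and 10 with kidney at the nearer Wilson bound. The 4 highest became 10 with TMM, 12 with DESeq2 size factors, 9 with totals that leave out the 5 most abundant precursors and 9 with no count filter. mir-10a left this list under TMM, and mir-3068 at the lower Wilson bound. Leaving out 1 brain library gave 20 to 20 raised, 35 to 36 lowered and 4 to 4 highest, and leaving out 1 pool gave 18 to 21, 32 to 38 and 4 to 6. A count filter with brain as 1 tissue, chosen after seeing the data, gave 19, 33 and 4 of 244 precursors. Of the 29 named precursors called, 29 kept their sign over 23 settings and 18 also their side of the 4-fold line. Depth limits the lowered precursors most, and 1 kidney pool gives no spread between animals.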
